A study of Mus musculus with 7 samples.

Results

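The 40 genes described here encode subunits of the Polycomb repressive complexes PRC1 and PRC2 and of the MLL/SET1 (COMPASS) complexes, together with the demethylases of histone H3 lysine 27 (H3K27). They were listed by the complex they belong to, and all 40 had a row in each of the 7 gene tables, which hold 23413 gene symbols between them. Cortices of 7 mouse embryos of 1 litter were taken at E18.5 (days of embryonic development), 1 library per embryo. Seq-Well isolates single cells in wells with barcoded beads, and each captured transcript is counted once by its unique molecular identifier (UMI). The 4 mutant embryos (replicates 10, 11, 12 and 17) were Emx1CreERT2;Ash1lfl/fl and the 3 controls (replicates 14, 15 and 16) were Ash1lfl/fl, so that both genotypes carried floxed Ash1l. Only the mutants carried the tamoxifen-dependent Cre driven by Emx1. All 7 were exposed to tamoxifen, given to the dam at 100 mg/kg on E10.5. The Emx1 promoter is active in progenitors of the dorsal telencephalon, which form the excitatory neurons of the cortex. Most cortical interneurons are born ventrally, outside that domain.

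PRC2 places methyl groups on H3K27 through Ezh2 or its paralog Ezh1, with Eed and Suz12 as its other core subunits, and PRC1 places ubiquitin on histone H2A through Rnf2 or Ring1. Both keep genes silent. The MLL/SET1 enzymes (Kmt2a to Kmt2d, Setd1a and Setd1b) methylate H3 lysine 4 (H3K4) at promoters and enhancers of active genes and work on a shared scaffold of Wdr5, Rbbp5, Ash2l and Dpy30. In the developing cortex PRC2 is known for its part in timing the passage from progenitor growth to neurogenesis. Ash1l is a histone H3 methyltransferase of the Trithorax group, a class of proteins named for its opposition to Polycomb in flies.

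Of 50191 barcodes, 23005 had at least 500 detected genes and at most 10% mitochondrial UMIs and were kept as cells, 2114 to 4285 per embryo. Cells were sorted by rule, not by clustering. A cell had to detect at least 2 markers of its own class and more than of either other class. This gave 5521 progenitors (24.0% of kept cells), 8938 excitatory neurons (38.9%) and 1988 interneurons (8.64%), and 6558 cells were left out of all 3 gates. These gates are ranges and not cell types: 18.9% of the progenitors, 31.2% of the excitatory neurons and 20.5% of the interneurons detected just 2 own markers. The summed progenitor markers stood in excitatory neurons at 4.07% of their level in progenitors (median of 7 embryos) and in interneurons at 6.24%. These same markers set the gates, and such a sum is led by its most abundant genes. The summed excitatory markers stood in the progenitor gate at 30.8% of their level in excitatory neurons, so that the progenitor gate also held transcripts of that class. No doublet caller was run, and 106 kept cells carried 1 of the 96 barcodes found in more than 1 library. The median cell held 1336 UMIs in progenitors, 1789.5 in excitatory neurons and 1342 in interneurons. Levels below are in CPM, the UMIs of a gene in the sum of 1 embryo and class, put on the same depth for all sums by edgeR's scaling. In such sums, fewer cells expressing a gene and less RNA per cell cannot be told apart. The levels are not set per transcript length. They are compared for 1 gene between classes or embryos and not between genes. The ratio of Ezh2 to Ezh1 UMIs given below is likewise compared only between classes and embryos. Among the progenitor markers, Sox2 had a median of 217 CPM in interneurons and 232 in progenitors. Each of the others was far lower in interneurons than in progenitors. A log2 fold change comes from edgeR's quasi-likelihood test, with the embryo as a block except in the 4 contrasts of genotype. Its standard error (SE) was worked out from the fold change and the test statistic. A member is said to be higher or lower where the p adjusted over all genes tested was under 0.05.

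Of the members, 14 differed between cycling and other progenitors, and 4 promoter stretches of PRC2 members are shown here. They are a selection and do not cover every PRC2 member called in that contrast. Ezh2, Suz12 and Phf19 were higher in cycling than in other progenitors, with log2 fold changes of 0.79, 0.71 and 1.98. Ezh1 was at −0.57 (adjusted p = 0.0627), which did not pass the test. Each stretch runs 5′ to 3′ from 250 bases before to 30 bases after a start site listed by RefSeq on GRCm38.p6. Capitals mark 1 of 4 forms of the E2F motif, searched on both strands: the form TTCCCGC, next the form TTGGCGC, then the form TTCGCGC, and last the form TTGCCGC. E2F factors drive many genes of DNA replication.
Ezh2 (chr6:47595001-47595280, minus strand): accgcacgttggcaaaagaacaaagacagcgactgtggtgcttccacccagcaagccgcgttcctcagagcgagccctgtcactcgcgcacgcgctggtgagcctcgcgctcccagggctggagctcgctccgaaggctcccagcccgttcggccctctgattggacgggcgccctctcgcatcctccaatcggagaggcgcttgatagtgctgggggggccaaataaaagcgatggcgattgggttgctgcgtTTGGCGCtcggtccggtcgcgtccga
Suz12 (chr11:79992856-79993135, plus strand): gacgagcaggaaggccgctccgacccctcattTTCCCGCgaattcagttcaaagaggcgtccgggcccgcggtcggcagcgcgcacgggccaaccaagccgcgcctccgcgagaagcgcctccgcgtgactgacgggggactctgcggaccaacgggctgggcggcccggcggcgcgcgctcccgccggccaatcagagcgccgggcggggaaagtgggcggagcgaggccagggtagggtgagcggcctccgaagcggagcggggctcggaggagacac
Phf19 (chr2:34913947-34914226, minus strand): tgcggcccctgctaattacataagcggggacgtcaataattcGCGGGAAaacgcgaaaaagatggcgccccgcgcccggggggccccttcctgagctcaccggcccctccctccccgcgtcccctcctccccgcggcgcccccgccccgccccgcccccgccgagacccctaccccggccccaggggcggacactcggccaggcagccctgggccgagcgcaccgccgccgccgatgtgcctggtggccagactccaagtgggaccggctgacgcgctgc
Ezh1 (chr11:101226434-101226713, minus strand): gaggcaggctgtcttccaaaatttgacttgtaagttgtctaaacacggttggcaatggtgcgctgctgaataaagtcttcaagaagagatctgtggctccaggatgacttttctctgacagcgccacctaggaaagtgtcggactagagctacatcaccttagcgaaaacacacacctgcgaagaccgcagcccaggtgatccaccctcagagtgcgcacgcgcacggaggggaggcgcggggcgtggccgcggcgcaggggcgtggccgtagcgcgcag

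Counted from the start site, the letters began at base 4 in Ezh2, at base −218 in Suz12 and at base −208 in Phf19, where they lie on the opposite strand. The Ezh1 stretch does not hold them. The search was chosen after the cycling contrast was seen. In windows of 300 bases (250 before and 50 after a start site), the letters occur in 10.9% of the 27025 genes with a window, in 21.9% of the 6953 of these that were tested and in 32.1% of the 1049 genes higher in cycling progenitors. Among the 33 members with a window, they occur in 6 of the 9 members higher in cycling progenitors (Ezh2, Suz12, Phf19, Aebp2, Pcgf5 and Dpy30) and in 1 of the other 24 (Cbx6). Of the 9, Eed, Rbbp7 and Wdr5 do not hold them, nor does Jarid2, the PRC2 member called lower in cycling progenitors. Not all of the 9 calls were firm: those of Aebp2, Pcgf5, Dpy30 and Eed were lost in 6, 3, 3 and 8 of 17 alternative settings. A member counts where any of its windows holds the letters, and the number of windows differs between genes. Aebp2, Pcgf5 and Dpy30 each have windows with and without them. A match of letters is a description of the window and not a bound site.

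Between progenitors and excitatory neurons, 39 members could be tested and 24 differed, 11 higher and 13 lower in progenitors. Over all 10984 genes tested, 64.3% were called (31.4% higher and 32.9% lower), so the members' share of calls was near that of all genes. Their median log2 fold change was −0.03, against −0.01 over all genes. Of 10 PRC2 members, 6 were higher and 3 lower. Of 15 PRC1 members tested, 3 were higher and 7 lower, and of 12 MLL/SET1 members 1 was higher and 2 lower. Cbx7, with 1.77 to 8.34 CPM in excitatory neurons, was too low to test. The 7 embryos of one class lay wholly above those of the other for 11 members, against 27.8% of all genes.

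Of the PRC2 core, Ezh2, Eed, Suz12 and the histone-binding subunit Rbbp7 were all higher in progenitors, and Ezh1 was the core member that went the other way. Ezh2 ran from 283 to 360 CPM in progenitors (median 327), from 221 to 259 in excitatory neurons (median 236) and from 271 to 443 in interneurons (median 318). The progenitors of every embryo thus lay above the excitatory neurons of every embryo, while progenitors and interneurons overlapped. The log2 fold change was 0.41 (SE 0.06, adjusted p = 1.57e-06) between progenitors and excitatory neurons, higher in 7 of 7 embryos. Between interneurons and excitatory neurons it was 0.46 (SE 0.07, adjusted p = 3.12e-06), again in 7 of 7. Between progenitors and interneurons it was −0.01 (SE 0.07, adjusted p = 0.927). Ezh1 ran from 10.6 to 24.1 CPM in progenitors (median 21.5), from 21.3 to 30.9 in excitatory neurons (median 29.0) and from 15.4 to 37.7 in interneurons (median 24.8). It was lower in progenitors than in excitatory neurons in 6 of 7 embryos, with a log2 fold change of −0.50 (SE 0.13, adjusted p = 0.00231). The ratio of Ezh2 to Ezh1 UMIs within an embryo shows both movements together. It was 13.3 to 27.9 in progenitors (median 15.7) and 7.56 to 10.8 in excitatory neurons (median 8.36), with no overlap. In interneurons it spread from 7.21 to 21.3 (median 12.8) and overlapped both.

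Eed, the subunit that reads methylated H3K27, ran from 32.4 to 51.4 CPM in progenitors (median 36.1), from 20.5 to 35.1 in excitatory neurons (median 27.9) and from 24.2 to 42.4 in interneurons (median 27.4). The ranges overlap, and the log2 fold change against excitatory neurons was 0.46 (SE 0.11, adjusted p = 0.00118), higher in 6 of 7 embryos. Suz12 and Rbbp7 were higher than in excitatory neurons by 0.34 each on the log2 scale (adjusted p = 6.70e-05 and 4.95e-05), in 7 of 7 embryos. Rbbp7, which is X-linked, had a median of 116 CPM in progenitors (80.4 to 125), 91.1 in excitatory neurons (69.8 to 104) and 84.9 in interneurons (53.4 to 102). Mutant 12 was its lowest embryo in all 3 classes. The difference from interneurons was 0.45 (SE 0.10, adjusted p = 0.000232), which without cycling cells was 0.20 (adjusted p = 0.158). Ezh2, Suz12 and Rbbp7 each overlap an exon of a gene on the opposite strand in the GENCODE annotation, and whether the counting used strand is not given in the sources used here. The same holds for Mtf2, Phf1, Rnf2, Cbx7, Kdm2b and Kmt2e among the other members.

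**Figure D1:**
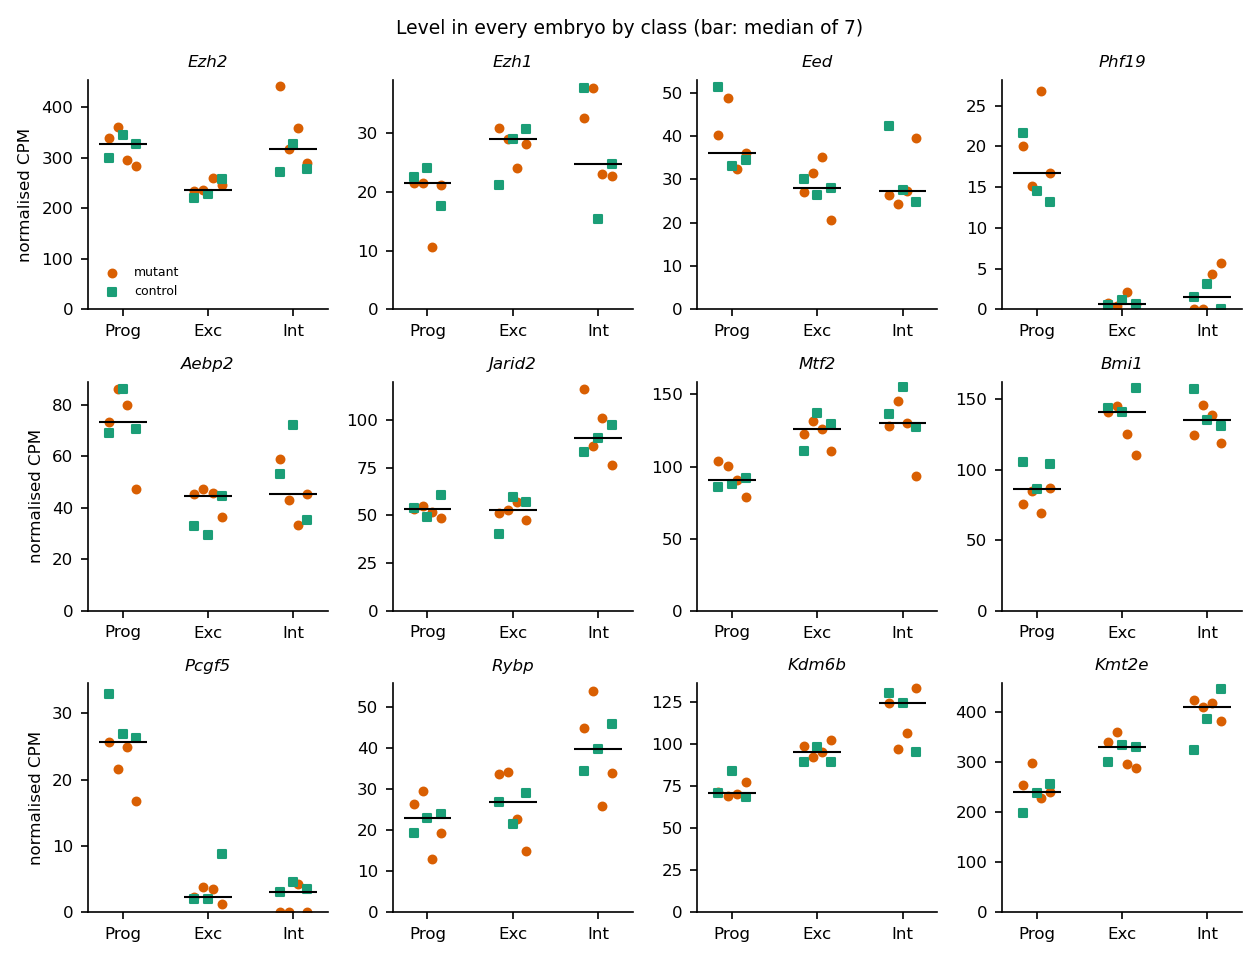
Normalised CPM of 12 members in progenitors (Prog), excitatory neurons (Exc) and interneurons (Int), 1 point per embryo (orange circles, 4 mutants; green squares, 3 controls), with a bar at the median of the 7 embryos and every axis from 0. Every progenitor value of Phf19 and Pcgf5 lies above every neuron value, and every interneuron value of Jarid2 lies above those of the other classes.

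The accessory subunits, which define the forms of PRC2, were split between progenitors and neurons. Phf19, Mtf2 and Phf1 are the 3 Polycomb-like proteins, which bring PRC2 to unmethylated CpG islands, and they did not move together. Phf19 ran from 13.1 to 26.8 CPM in progenitors (median 16.8), from 0.42 to 2.20 in excitatory neurons (median 0.66) and from 0 to 5.66 in interneurons (median 1.57). All 7 progenitor values lay above all neuron values. Against excitatory neurons its log2 fold change was 4.28 (SE 0.25, adjusted p = 1.50e-12), a 19.5-fold difference. Against interneurons it was 3.09 (SE 0.40, adjusted p = 5.33e-08). These rest on few UMIs: 200 over all embryos in progenitors, 19 in excitatory neurons and 8 in interneurons. The median level of Phf19 in excitatory neurons was 3.95% of that in progenitors. The progenitor markers stood there at 4.07%, but they set the gates and Phf19 did not, so these shares are not comparable. Whether the neuron UMIs of Phf19 came from progenitor transcripts was not tested. Mtf2 and Phf1 were lower in progenitors. Mtf2 ran from 78.9 to 104 CPM in progenitors, 111 to 137 in excitatory neurons and 93.4 to 155 in interneurons, with medians of 91.0, 126 and 130. Its log2 fold change was −0.45 (SE 0.06, adjusted p = 8.46e-07) against excitatory neurons, whose embryos did not overlap with the progenitors. Phf1 ran from 3.92 to 11.2 CPM in progenitors, 10.9 to 20.5 in excitatory neurons and 12.2 to 31.1 in interneurons (medians 9.35, 13.6 and 14.4). It was lower in progenitors in 7 of 7 embryos, by −0.77 (SE 0.18, adjusted p = 0.00074) and −0.95 (SE 0.28, adjusted p = 0.00496) on the log2 scale.

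Jarid2 and Aebp2 mark the other form of PRC2, and these also differed from each other. Aebp2 ran from 47.2 to 86.2 CPM in progenitors (median 73.5), 29.3 to 47.2 in excitatory neurons (median 44.7) and 33.2 to 72.2 in interneurons (median 45.3). It was higher in progenitors by 0.86 (SE 0.11, adjusted p = 2.55e-07) and 0.61 (SE 0.14, adjusted p = 0.000363) on the log2 scale, in 7 of 7 embryos each. Jarid2, by contrast, was highest in interneurons. It ran from 76.4 to 116 CPM in interneurons (median 90.7), above every progenitor value (48.5 to 60.6, median 53.4) and every excitatory value (40.003 to 59.5, median 53.1). The log2 fold change was 0.86 (SE 0.10, adjusted p = 3.32e-08) for interneurons over excitatory neurons and −0.80 (SE 0.11, adjusted p = 1.99e-07) for progenitors against interneurons. Between progenitors and excitatory neurons it was 0.02 (SE 0.09, adjusted p = 0.875).

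Among PRC1 subunits, the PCGF proteins decide which kind of PRC1 is formed, and they too differed in direction. Pcgf5, of the variant PRC1.5, ran from 16.8 to 32.9 CPM in progenitors (median 25.6), 1.33 to 8.86 in excitatory neurons (median 2.29) and 0 to 4.61 in interneurons (median 3.14). The groups did not overlap, and the log2 fold change was 2.84 (SE 0.25, adjusted p = 9.70e-10) against excitatory neurons and 3.25 (SE 0.35, adjusted p = 9.47e-10) against interneurons, with 278, 82 and 10 UMIs in the 3 classes. Bmi1 (Pcgf4), of canonical PRC1 and known for its part in stem cell renewal, was lower in progenitors. It ran from 69.2 to 105 CPM there (median 86.2), 110 to 158 in excitatory neurons (median 141) and 119 to 157 in interneurons (median 135). No progenitor value reached a neuron value, with log2 fold changes of −0.66 (SE 0.07, adjusted p = 2.22e-08) and −0.63 (SE 0.09, adjusted p = 7.76e-07). Pcgf3 had medians of 98.8, 139 and 137 CPM in progenitors, excitatory neurons and interneurons, and was lower in progenitors by −0.46 against each neuron class (adjusted p = 1.23e-06 and 7.49e-05). Its ranges were 91.8 to 118, 126 to 155 and 108 to 173 CPM. Pcgf2, the paralog of Bmi1, was lower in progenitors by −0.34 and −0.50 (adjusted p = 0.00801 and 0.00632), the second of which did not pass by DESeq2 (adjusted p = 0.0502) or at a mitochondrial share of at most 5% (adjusted p = 0.0654). Pcgf6 passed neither test.

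The CBX proteins, which read methylated H3K27 for canonical PRC1, also had no common direction. Cbx2 was higher in progenitors than in excitatory neurons by 0.54 (SE 0.13, adjusted p = 0.000836), with 18.6 to 30.5 CPM in progenitors (median 23.3), 13.9 to 21.5 in excitatory neurons (median 16.7) and 14.2 to 26.0 in interneurons (median 15.9). Cbx8 was lower in progenitors, with 19.3 to 47.0 CPM (median 35.4), against 39.0 to 64.1 in excitatory neurons (median 53.5) and 46.9 to 75.4 in interneurons (median 59.6). Its log2 fold changes were −0.46 (SE 0.11, adjusted p = 0.00073) and −0.72 (SE 0.16, adjusted p = 0.000198). Cbx2 and Cbx8 are neighbours on chromosome 11, at 119022962 to 119031270 and 119036305 to 119040969 in the GENCODE annotation of mm10, on opposite strands. Of the polyhomeotic proteins, which join PRC1 units into larger assemblies, Phc1 was lower in progenitors than in both neuron classes by −0.33 and −0.49 (adjusted p = 6.30e-05 and 6.60e-05). Phc2 was higher than in excitatory neurons by 0.15 (adjusted p = 0.0208), a call that was lost in 6 of 18 alternative settings, among them without control 15 (adjusted p = 0.0798) and without control 16 (adjusted p = 0.0642). Phc3 passed neither test. The ligase Rnf2 was lower by −0.24 and −0.26 (adjusted p = 0.000932 and 0.0251), and the second of these calls was lost in 7 of 18 settings, among them without mutant 11, mutant 12 or control 15 (adjusted p = 0.0588, 0.0600 and 0.0958). Ring1 was at 0.07 and 0.02 and passed neither test.

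Kdm2b and Rybp, which belong to variant PRC1 as Pcgf5 does, were lower in progenitors than in interneurons. Kdm2b, which binds unmethylated CpG islands, ran from 62.0 to 88.3 CPM in progenitors (median 75.8), 99.4 to 125 in excitatory neurons (median 117) and 69.0 to 128 in interneurons (median 98.3). It was lower in progenitors by −0.61 (SE 0.07, adjusted p = 3.11e-08) against excitatory neurons, with no overlap, and −0.39 (SE 0.10, adjusted p = 0.002) against interneurons. The latter call was lost without cycling cells (−0.23, adjusted p = 0.0795). Rybp, the RING1- and YY1-binding protein, ran from 13.1 to 29.5 CPM in progenitors (median 23.0), 14.9 to 34.1 in excitatory neurons (median 27) and 26.0 to 53.9 in interneurons (median 39.9). It was lower in progenitors than in interneurons by −0.85 (SE 0.17, adjusted p = 5.29e-05) and higher in interneurons than in excitatory neurons by 0.62 (SE 0.15, adjusted p = 0.00178), each in 7 of 7 embryos.

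**Figure D2:**
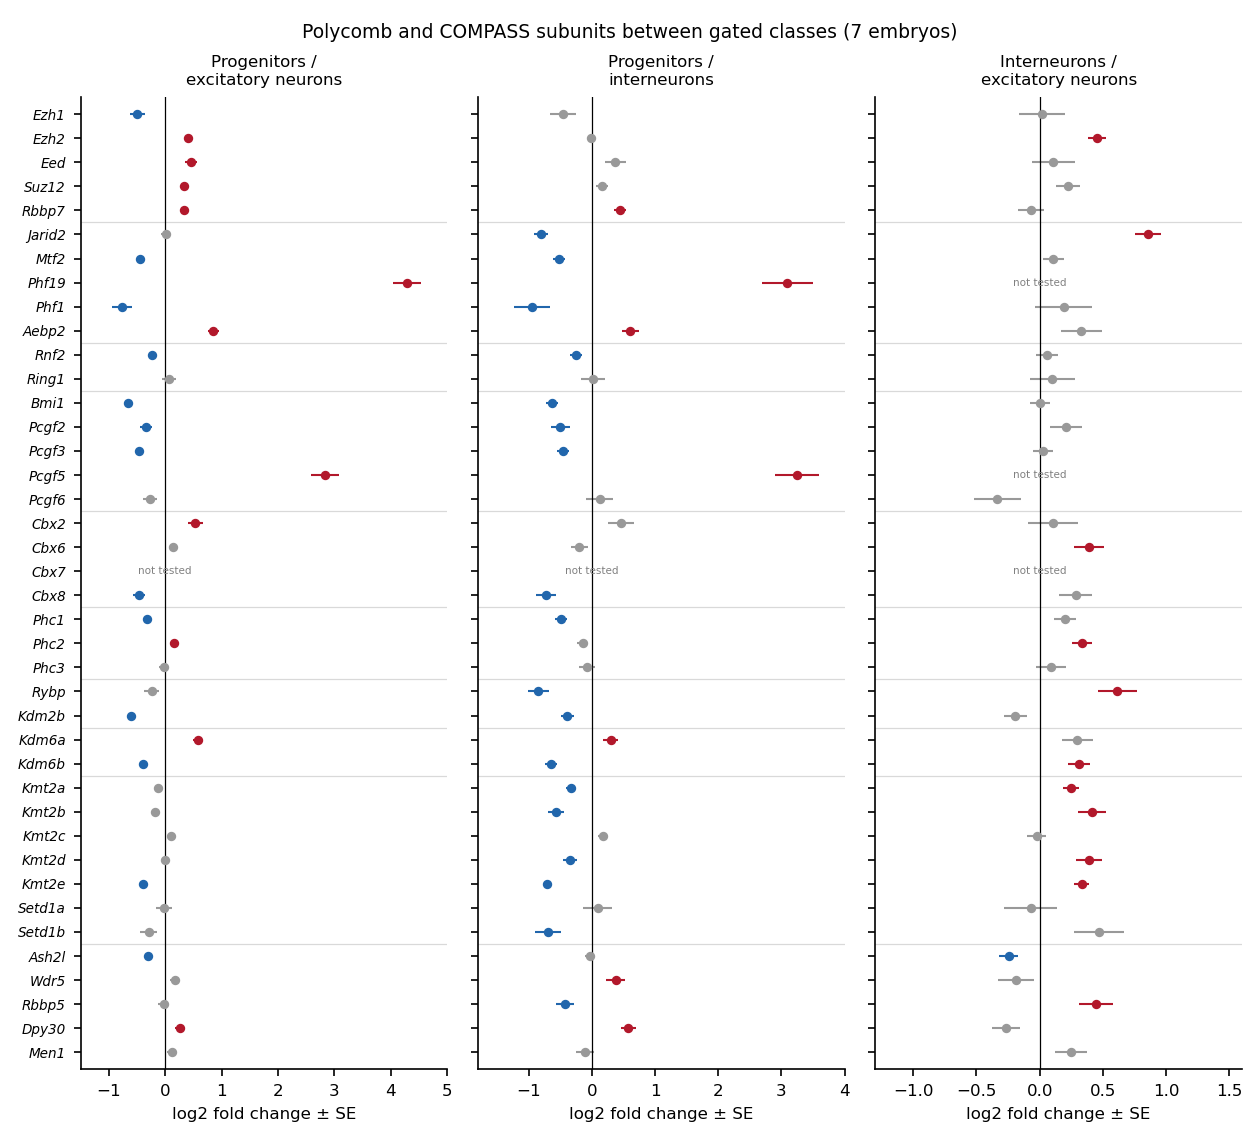
The log2 fold change ± SE of each member in the 3 contrasts between classes (7 embryos, embryo as block), ordered by complex with grey lines between roles. Red marks members higher in the class named first, blue members lower, grey members that did not pass the test, and the horizontal scales differ between panels. Phf19 and Pcgf5 lie far to the right in both progenitor contrasts, and 11 of 12 calls in the contrast of the neuron classes lie to the right of 0.

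The demethylases of H3K27 went opposite ways. Kdm6a (Utx) was higher in progenitors than in excitatory neurons by 0.58 (SE 0.09, adjusted p = 3.46e-06), in 7 of 7 embryos, although the ranges of 46.5 to 84.5 and 33.7 to 68.1 CPM overlap (medians 69.9 and 41.5). In interneurons it ran from 35.3 to 72.2 CPM (median 58.0). Its difference from progenitors there, 0.30 (SE 0.12, adjusted p = 0.035), was lost in 11 of 18 alternative settings, among them without mutant 10, 11 or 17 or control 14 or 15 (adjusted p from 0.0693 to 0.106). Kdm6b (Jmjd3) ran from 68.3 to 84.0 CPM in progenitors (median 70.7), 89.5 to 102 in excitatory neurons (median 95.3) and 95.5 to 133 in interneurons (median 124). It was lowest in progenitors without overlap, by −0.39 (SE 0.06, adjusted p = 1.68e-05) and −0.65 (SE 0.10, adjusted p = 9.04e-07), and was higher in interneurons than in excitatory neurons by 0.31 (SE 0.09, adjusted p = 0.00625). Without cycling cells the progenitor differences of Kdm6b were −0.18 (adjusted p = 0.0499) and −0.49 (adjusted p = 0.000191).

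Of the 7 MLL/SET1 family proteins (the enzymes named above and Kmt2e) 1 was called between progenitors and excitatory neurons, where 64.3% of all genes were. Kmt2e (Mll5), a MLL-family protein without known methyltransferase activity, was that member. It ran from 199 to 299 CPM in progenitors (median 240), 288 to 360 in excitatory neurons (median 329) and 325 to 446 in interneurons (median 409). Each difference held in 7 of 7 embryos, with log2 fold changes of −0.40 (SE 0.05, adjusted p = 1.79e-07) for progenitors against excitatory neurons, −0.70 (SE 0.06, adjusted p = 1.59e-11) against interneurons and 0.33 (SE 0.06, adjusted p = 1.97e-05) for interneurons over excitatory neurons. Against interneurons, progenitors were lower in 5 of these 7 proteins, Kmt2e among them, where 25.7% of all genes were lower. Kmt2b and Setd1b fell furthest after Kmt2e, at −0.56 (SE 0.13, adjusted p = 0.000426) and −0.69 (SE 0.21, adjusted p = 0.00531). Setd1b ran from 10.9 to 26.3 CPM in progenitors, 14.3 to 29.0 in excitatory neurons and 14.2 to 42.8 in interneurons (medians 14.6, 16.6 and 21.6), so its groups overlap widely although 7 of 7 embryos were lower. Kmt2a and Kmt2d were lower by −0.33 and −0.35 (adjusted p = 0.000395 and 0.0107), and the call of Kmt2d was lost in 3 of 18 alternative settings (highest adjusted p = 0.101). Kmt2c and Setd1a passed none of the 3 contrasts.

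Between progenitors and interneurons as a whole, 39 members were tested, 7 were higher in progenitors and 18 lower, with a median log2 fold change of −0.20 against 0.01 over all genes. The background was 51.7% of 9506 genes called, 26% higher and 25.7% lower. The embryos of the classes did not overlap for 8 members, against 18.7% of all genes. Of the PRC2 members 3 were higher and 3 lower, of 15 PRC1 members tested 1 was higher and 8 lower, and of the MLL/SET1 members 2 were higher and 6 lower. The 2 higher, Dpy30 and Wdr5, are parts of the shared scaffold, but the scaffold had no common direction. Rbbp5, also of the scaffold, was lower in progenitors at −0.42 (adjusted p = 0.0153), a call lost in 3 of 18 alternative settings. Ash2l was at −0.03 (adjusted p = 0.819) and did not pass the test. Dpy30, which stimulates the methyltransferases, ran from 62.9 to 105 CPM in progenitors (median 83.3), 46.5 to 84.2 in excitatory neurons (median 76.5) and 40.4 to 79.6 in interneurons (median 53.9). It was higher than in interneurons by 0.58 (SE 0.12, adjusted p = 9.52e-05) and than in excitatory neurons by 0.26 (SE 0.08, adjusted p = 0.00604). Wdr5 was higher than in interneurons by 0.38 (SE 0.15, adjusted p = 0.0311), a call that was lost in 8 of 18 alternative settings, among them without mutant 11, 12 or 17 or control 14 (adjusted p from 0.0572 to 0.2).

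Between the neuron classes 37 members were tested, and 11 were higher in interneurons and 1 lower. Here 34% of 9837 genes were called, 17% in each direction, and the median log2 fold change was 0.20 over the members and 0.01 over all genes. The embryos did not overlap for 2 members, Ezh2 and Jarid2, against 8.7% of all genes. Among the called members, the largest after Jarid2, Rybp and Ezh2 was Rbbp5, a scaffold subunit of the MLL/SET1 complexes, at 0.44 (SE 0.13, adjusted p = 0.00977), with 36.8 to 51.8 CPM in interneurons (median 47.7) and 30.002 to 38.7 in excitatory neurons (median 33). Kmt2b followed at 0.41 (SE 0.11, adjusted p = 0.00426), with 40.4 to 99.9 against 40.003 to 70.7 CPM and medians of 82.3 and 53.5. Kmt2d and Cbx6 were each at 0.39 (adjusted p = 0.00299 and 0.00935), with medians of 81.6 and 73.0 CPM for Kmt2d (73.6 to 135 and 53.8 to 96.3) and 64.5 and 48.6 for Cbx6 (40.7 to 92.6 and 46.3 to 58.0). Phc2 was at 0.33 (adjusted p = 0.00138), with 127 to 225 and 99.8 to 162 CPM and medians of 153 and 130. Kmt2a was at 0.25 (adjusted p = 0.00279), with 205 to 273 and 168 to 232 CPM and medians of 224 and 192. All of these ranges overlap, and the rise was seen in 7 of 7 embryos except for Cbx6, with 6 of 7. Without control 14, Cbx6 and Rbbp5 lost their calls (adjusted p = 0.0673 and 0.0569). In other settings the calls of Kmt2a and Kdm6b were lost in 2 of 18. Ash2l, the scaffold subunit that stimulates the enzymes with Rbbp5, was the member lower in interneurons. It ran from 110 to 159 CPM there (median 133), 152 to 176 in excitatory neurons (median 165) and 122 to 145 in progenitors (median 135). The log2 fold change between the neuron classes was −0.25 (SE 0.08, adjusted p = 0.0107), and that between progenitors and excitatory neurons was −0.31 (SE 0.05, adjusted p = 2.10e-05). Over the 3 contrasts 33 of the 40 members were called at least once and 7 in none, namely Ring1, Pcgf6, Cbx7 (not tested), Phc3, Kmt2c, Setd1a and Men1, the MLL cofactor menin.

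Progenitors were then divided by the cell cycle. Cells with at least 2 of 13 cycling genes numbered 1540 of the 5521 progenitors, 355 of the excitatory neurons and 135 of the interneurons. The cycling progenitors were also deeper in every embryo, with medians of 1521 to 2714 UMIs per cell, against 1127.5 to 1656.5 in the others. The summed excitatory markers had a median of 646 CPM in cycling and 904 CPM in other progenitors. The part of these differences in the contrast was not tested. Of 38 members tested, 9 were higher and 5 lower in cycling than in other progenitors, against 14.7% and 12.3% of 9149 genes, 27.1% in all. The embryos of both states did not overlap for 4 members, Ezh2, Suz12, Phf19 and Kdm6b, against 5.61% of all genes. All 4 of the PRC2 core members that were higher in progenitors than in excitatory neurons were higher in cycling cells. Ezh2 ran from 402 to 550 CPM in cycling progenitors (median 434) and from 237 to 282 in the others (median 265), a log2 fold change of 0.79 (SE 0.06, adjusted p = 2.39e-14). Suz12 ran from 121 to 186 CPM (median 144) against 67.2 to 114 (median 96.8), at 0.71 (SE 0.09, adjusted p = 5.10e-08). Rbbp7 ran from 112 to 176 CPM (median 157) against 67.2 to 114 (median 97.6), at 0.70 (SE 0.09, adjusted p = 4.92e-08), with the lowest cycling value just under the highest other value. Eed was at 0.46 (adjusted p = 0.0252), a call lost in 8 of 17 settings, among them without mutant 11, mutant 12 or control 14 (adjusted p = 0.12, 0.0785 and 0.0657).

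Outside the core, Phf19 ran from 23.3 to 52.4 CPM in cycling progenitors (median 33) and from 3.75 to 14.6 in the others (median 7.38). Its log2 fold change of 1.98 (SE 0.25, adjusted p = 2.06e-08) was the largest among the members. Wdr5 ran from 57.0 to 92.3 CPM (median 78.6) against 39.3 to 57.8 (median 43.6), at 0.73 (SE 0.13, adjusted p = 1.88e-05). Pcgf5 ran from 20.3 to 48.4 CPM (median 31.1) against 12.5 to 24.8 (median 22.9), at 0.63 (SE 0.19, adjusted p = 0.0111), a call lost in 3 of 17 settings, among them without control 15 (adjusted p = 0.066). Dpy30 and Aebp2 were at 0.38 and 0.37 (adjusted p = 0.00461 and 0.0178). Those lower in cycling cells were Kdm2b (−0.55), Kdm6b (−0.54), Jarid2 (−0.51), Kmt2d (−0.35) and Kmt2e (−0.18), with adjusted p = 0.00122, 0.000517, 0.0106, 0.0264 and 0.0376. Leaving out 1 embryo ended the call of Aebp2 (without mutant 10, adjusted p = 0.152), of Jarid2 (without control 16, 0.071), of Kmt2d (without mutant 10, mutant 12 or control 16, 0.0651 to 0.132) and of Kmt2e (without mutant 11, mutant 12 or any 1 control, 0.0512 to 0.104). The Ezh2 to Ezh1 ratio had a median of 30.9 in cycling progenitors (18.8 to 116) and 10.6 in the others (8.18 to 16.2), without overlap. The top of that range, mutant 12, rests on 2 Ezh1 UMIs, the fewest of any embryo.

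With cycling cells taken out of every class, 6 members were higher in progenitors than in excitatory neurons and 11 lower, in place of 11 and 13. Calls over all genes fell as well, from 3449 higher and 3610 lower of 10984 genes to 2868 and 2862 of 10447. Of the 6, Aebp2, Pcgf5, Cbx2, Phc2 and Kdm6a had been called before and Kmt2c had not. The core of PRC2 lost its calls. Ezh2 went from 0.41 to 0.13 (adjusted p = 0.0547), Suz12 from 0.34 to 0.11 (adjusted p = 0.243), Rbbp7 from 0.34 to 0.10 (adjusted p = 0.30), Eed from 0.46 to 0.31 (adjusted p = 0.0506) and Ezh1 from −0.50 to −0.30 (adjusted p = 0.0871). Pcgf2 and Dpy30 lost theirs as well, at −0.25 and 0.15 (adjusted p = 0.055 and 0.139). Phf19 was then too low to test. By contrast, Pcgf5 stayed at 2.67 (SE 0.27, adjusted p = 9.62e-10), Aebp2 at 0.74 (SE 0.12, adjusted p = 9.86e-06), Kdm6a at 0.60 (SE 0.10, adjusted p = 1.57e-05), Bmi1 at −0.56 (SE 0.08, adjusted p = 7.63e-07) and Mtf2 at −0.42 (SE 0.08, adjusted p = 3.56e-05). Against interneurons, Ezh2 was then lower in progenitors, at −0.26 (SE 0.07, adjusted p = 0.00338).

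**Figure D3:**
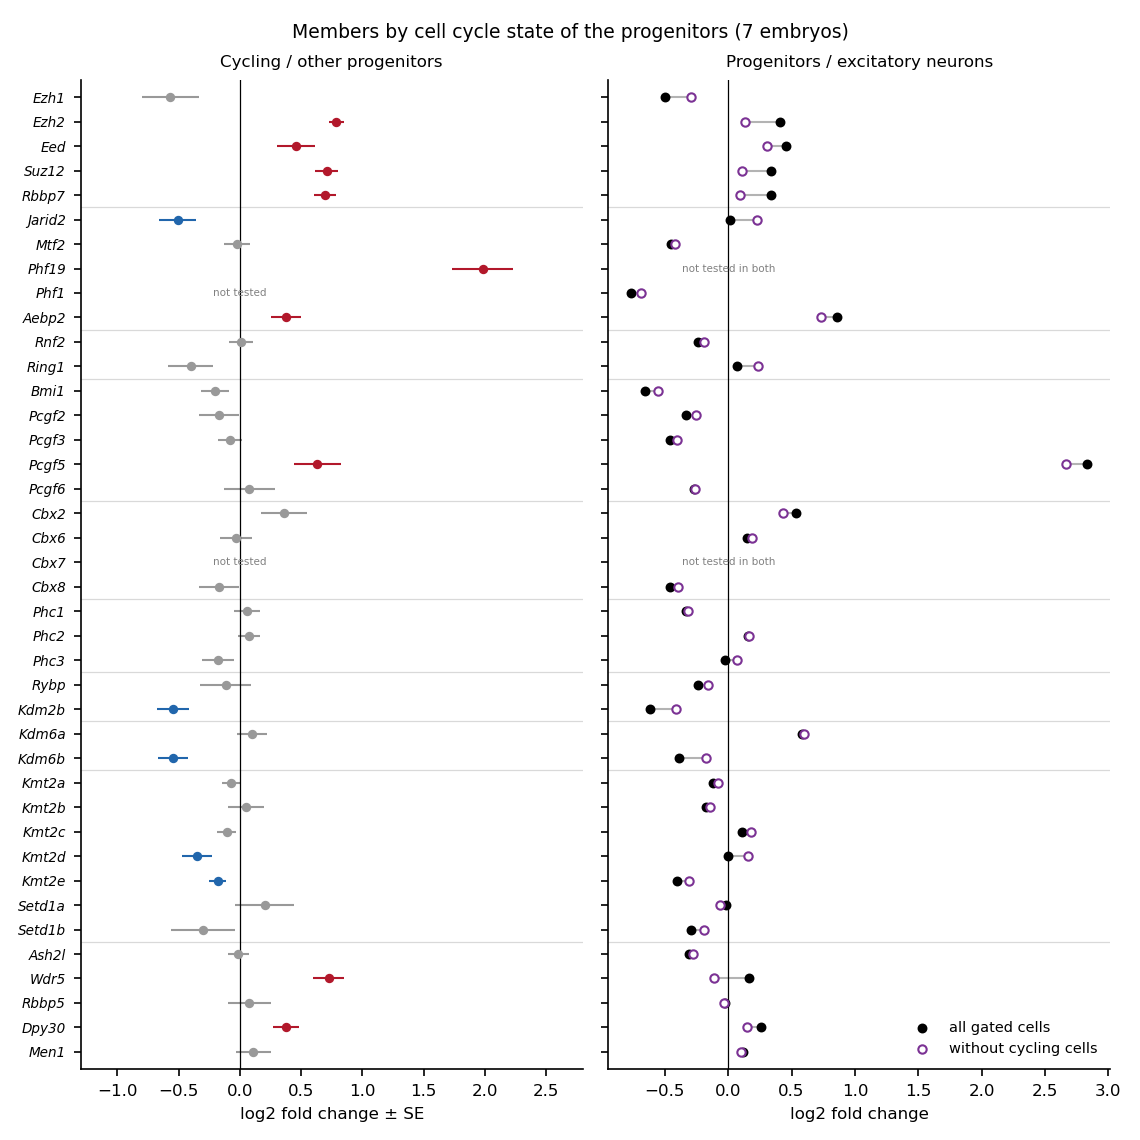
Left, log2 fold change ± SE between cycling and other progenitors of the 7 embryos (red, higher in cycling cells; blue, lower; grey, did not pass the test). Right, log2 fold change between progenitors and excitatory neurons with all gated cells (black) and without cycling cells (open purple). The open points of Ezh2, Suz12 and Rbbp7 lie near 0, at 0.13, 0.11 and 0.10, while that of Pcgf5 stays at 2.67.

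Other genes of the same pathways were listed by function (40 listed, of which Auts2 was not analysed here). Of 37 tested between progenitors and excitatory neurons, 5 were higher and 14 lower, against 31.4% and 32.9% of all genes. E2f6, a repressor found with variant PRC1, was highest at 0.69 (SE 0.14, adjusted p = 0.000197), followed by Pagr1a at 0.46, Asxl2 at 0.36 and Cxxc1 at 0.21. Asxl3, a partner of the H2A deubiquitinase Bap1, was lowest at −0.90 (SE 0.11, adjusted p = 1.65e-07), followed by the H3K4 demethylase Kdm1b at −0.74, Fbrsl1 at −0.62 and the H3K4 demethylase Kdm5b at −0.42. Against interneurons 2 of 37 were higher (Foxk1 at 0.66 and E2f6 at 0.61) and 17 lower, against 26% and 25.7% of all genes. Bcor, the corepressor of variant PRC1.1, led the latter at −0.90, before Asxl3 at −0.77, Fbrsl1 at −0.71 and Lcor at −0.63. Bcor was likewise first among the 14 genes higher in interneurons than in excitatory neurons, at 0.92 (SE 0.10, adjusted p = 1.10e-09), with Scmh1, Kdm5a and Sfmbt1 next at 0.51, 0.47 and 0.46. The 4 lower were Epop (−0.74), Foxk1 (−0.59), Kdm1b (−0.38) and Foxk2 (−0.32), and 17% of all genes were called in each direction. In cycling progenitors 6 of 37 were higher, led by L3mbtl2 (0.87), Paxip1 (0.70), Psip1 (0.59) and Pagr1a (0.48). The 4 lower were Kdm5b (−0.85), Kdm1a (−0.35), Mga (−0.29) and Kdm5a (−0.21), against 14.7% of all genes higher and 12.3% lower.

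Mutant and control embryos were then compared, the comparison the study was built on. As a check of the labels, Ash1l itself stood at 156, 153, 166 and 125 CPM in all cells of the mutants (replicates 10, 11, 12 and 17) and at 165, 218 and 206 CPM in the controls (replicates 14, 15 and 16). Mutant 12 and control 14 overlap. This difference was −0.39 on the log2 scale (SE 0.12, adjusted p = 0.336). In excitatory neurons it was −0.51 (SE 0.12, adjusted p = 0.193), with 138, 141, 146 and 114 CPM in the mutants and 161, 209 and 209 in the controls, which do not overlap. The labels do not say which exons the loxP sites flank, and the beads capture transcripts at their poly(A) tails, so these counts need not fall in the deleted part.

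No member passed the test between genotypes in any class by edgeR, nor by DESeq2, limma voom or any other setting tried. In all cells 40 members were tested and 0 called, with a background of 0.0233% (3 of 12893 genes). At an unadjusted p under 0.05 there were 2 members of 40, against 1350 of the 12893 genes. In progenitors the counts were 0 of 39 (background 0.0277%) and 3 of 39 at the unadjusted level (5.15% of all genes). In excitatory neurons they were 0 of 39 (background 0.0537%) and 0 of 39 (11.7%), and in interneurons 0 of 35 (background 0%) and 1 of 35 (6.81%). The genotypes did not overlap for 0 members tested in excitatory neurons (10.4% of all genes) and 0 in interneurons (7.53%). The median log2 fold change of the members was 0.02 in all cells, −0.001 in progenitors, 0.03 in excitatory neurons and 0.04 in interneurons. That over all genes tested was within 0.01 of 0 in each. All values lay within 1 log2 unit of 0, from −0.36 to 0.56 in all cells, −0.36 to 0.74 in progenitors, −0.73 to 0.61 in excitatory neurons and −0.68 to 0.56 in interneurons. The median SE of a member was 0.13 in all cells, 0.18 in progenitors, 0.15 in excitatory neurons and 0.23 in interneurons, which sets the size of difference that could have been seen.

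The members nearest to a difference in all cells were Dpy30, Phf19, Ring1, Bmi1 and Suz12, with adjusted p from 0.472 to 0.545. Dpy30 stood at 60.1, 76.5, 48.9 and 74.4 CPM in the mutants and 82.3, 73.3 and 86.2 in the controls, at −0.31 (SE 0.15). Phf19 stood at 6.13, 5.14, 8.91 and 5.38 CPM in the mutants and 4.92, 4.21 and 3.92 in the controls, at 0.56 (SE 0.26). It was the 1 member whose genotypes did not overlap in all cells, where 9.89% of all genes did the same. Ring1, Bmi1 and Suz12 were at 0.36, −0.22 and −0.21, and their groups overlapped. Bmi1 stood at 113, 128, 107 and 101 CPM in the mutants and 133, 121 and 139 in the controls. Suz12 stood at 89.8, 99.1, 85.5 and 75.3 against 92.3, 108 and 104.

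In progenitors the leading 5 were Ring1, Kmt2a, Bmi1, Suz12 and Dpy30, with adjusted p from 0.942 to 0.957. Ring1 stood at 28.4, 30.3, 39.9 and 41.0 CPM in the mutants and 35.3, 15.1 and 15.4 in the controls, at 0.74 (SE 0.28), so control 14 lay among the mutants. Kmt2a stood at 182, 153, 176 and 148 CPM against 192, 246 and 182, at −0.34 (SE 0.15). Bmi1 stood at 75.5, 84.6, 69.2 and 87.0 against 105, 86.2 and 104, at −0.32 (SE 0.15). Suz12 stood at 103, 120, 94.7 and 82.1 against 113, 137 and 116, at −0.30 (SE 0.15), and Dpy30 at 84.5, 82.2, 62.9 and 83.3 against 105, 76.1 and 101, at −0.27 (SE 0.16). All 5 sets of values overlap. Pcgf5 was the 1 tested member without overlap, at 25.6, 21.5, 24.9 and 16.8 CPM in the mutants and 32.9, 26.9 and 26.2 in the controls, where 5.56% of all genes did not overlap. Its log2 fold change was −0.36 (SE 0.23, adjusted p = 0.957). Ezh2 stood at 338, 360, 296 and 283 CPM in mutant progenitors and 299, 345 and 327 in the controls.

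In excitatory neurons the leading members were Phc3, Aebp2, Cbx8, Cbx7 and Bmi1, with adjusted p from 0.484 to 0.611. Phc3 stood at 61.1, 67.8, 72.0 and 51.4 CPM in the mutants and 52.0, 54.3 and 53.8 in the controls, at 0.25 (SE 0.14). Aebp2 stood at 45.5, 47.2, 45.7 and 36.5 against 33, 29.3 and 44.7, at 0.29 (SE 0.16), and Cbx8 at 53.5, 54.3, 64.1 and 44.4 against 39.0, 54.3 and 44.1, at 0.25 (SE 0.15). Mutant 17 lay among or below the controls in these 3 genes. Cbx7, at 0.61 (SE 0.41), stood at 4.20, 4.63, 8.34 and 3.31 against 4.25, 4.02 and 1.77, and Bmi1, at −0.17 (SE 0.12), at 141, 145, 125 and 110 against 144, 141 and 158. In interneurons, which mostly lie outside the Emx1 lineage, the leading members were Kmt2d, Pcgf6, Ezh2, Ring1 and Dpy30, with adjusted p from 0.644 to 0.792. Kmt2d stood at 135, 124, 111 and 73.6 CPM against 81.6, 73.8 and 81.3, at 0.52 (SE 0.21), with mutant 17 at the level of the lowest control. Ezh2 stood at 443, 318, 359 and 289 against 271, 327 and 278, at 0.29 (SE 0.16). Pcgf6, at −0.68 (SE 0.39), stood at 12.2, 16.2, 23.1 and 11.3 against 26.7, 35.3 and 17.7. Ring1, at 0.56 (SE 0.36), stood at 20.4, 35, 33.2 and 48.1 against 28.2, 13.8 and 26.5, and Dpy30, at −0.40 (SE 0.26), at 40.8, 53.9, 40.4 and 70.8 against 70.6, 49.2 and 79.6. All 5 overlap between genotypes.

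**Figure D4:**
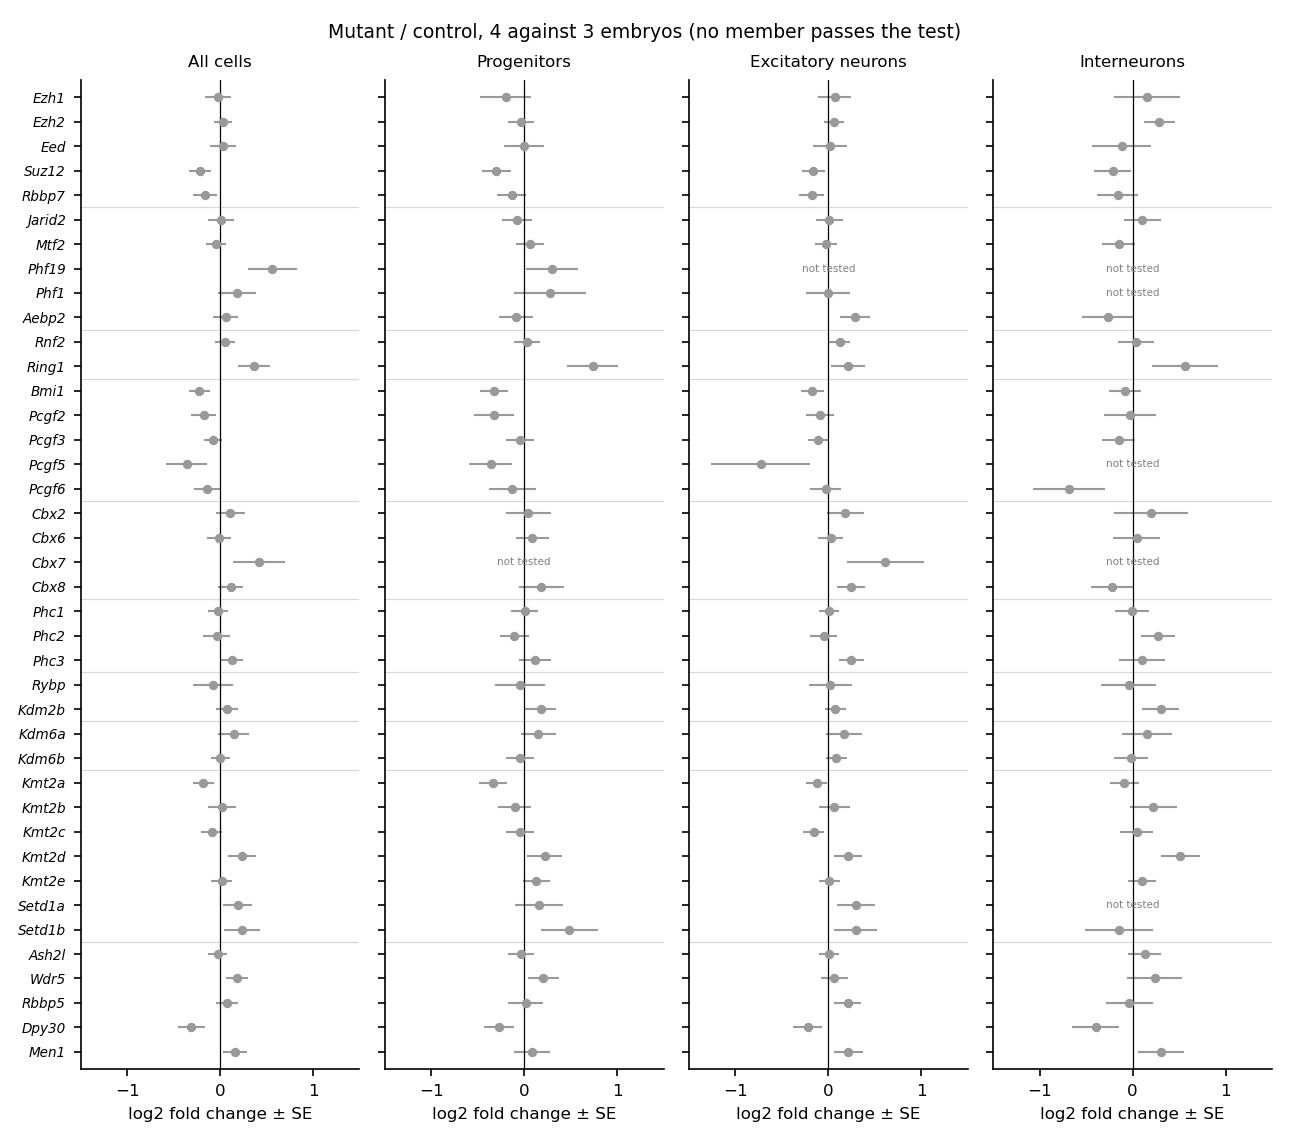
The log2 fold change ± SE of each member between 4 mutant and 3 control embryos, in all cells and in each class, ordered by complex. All points are grey because 0 members passed the test, and none lies beyond 1 in either direction.

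Whether the effect of genotype differed between progenitors and excitatory neurons was tested by an interaction term. None of 40 members passed (background 0.00851%), and 0 reached an unadjusted p under 0.05, against 4.47% of all genes. The nearest were Ring1 (0.51, SE 0.25), Aebp2 (−0.40, SE 0.20), Kmt2a (−0.21, SE 0.11), Kmt2b (−0.20, SE 0.16) and Pcgf2 (−0.25, SE 0.21), each with an adjusted p of 0.998. The rest of the pathway list gave 0 calls in each of the 4 contrasts of genotype and in the interaction. In the cells as a whole, excitatory neurons made up 36.5% ± 2.39 (SD, n = 4) of kept mutant cells and 42.8% ± 4.52 (SD, n = 3) of control cells, with an exact permutation p of 0.0286, the smallest that 35 splits allow (two-sided, adjusted over 3 classes 0.0857). The difference of −6.35 points became −3.75 without control 14 and −3.84 under the gate of at most 1 marker of another class. The part of class shares in the values for all cells was not tested. The values within classes are given above.

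Kdm6a escapes X inactivation in mice and has a Y-linked relative, Uty, so its level was set beside the sex-linked transcripts, since the labels give no sex. Kdm6a in all cells stood at 60.8, 43.3, 68.0 and 47.2 CPM in mutants 10, 11, 12 and 17 and at 47.5, 40.1 and 60.7 in controls 14, 15 and 16. Mutant 11 and control 15 were the lowest, in all cells and in each of the 3 classes. In the same 2 embryos Xist stood at 0.37 and 2.24 CPM, against 800 to 1378 in the other 5, and Uty at 21.5 and 18 CPM, against 0 in the other 5. In progenitors Kdm6a stood at 55.9 and 46.5 CPM in these 2 embryos and from 68.4 to 84.5 in the rest. In interneurons it stood at 37.7 and 35.3 against 45.3 to 72.2. Each genotype held 1 such embryo. Rbbp7, the other X-linked member, stood at 91.7 and 96.8 CPM in mutant 11 and control 15, within the range of 71.8 to 109 of the others.

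**Figure D5:**
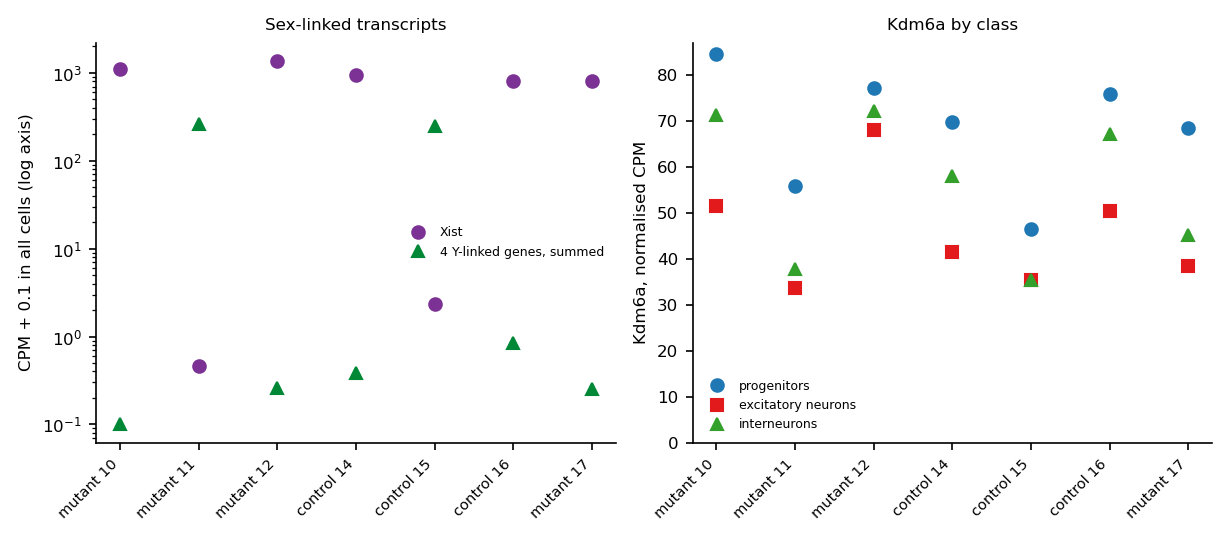
Left, CPM + 0.1 of Xist (circles) and of 4 Y-linked genes summed (Uty, Ddx3y, Eif2s3y and Kdm5d, triangles) in all cells of each embryo, on a log axis. Right, normalised CPM of Kdm6a in each embryo by class, from 0, where mutant 11 and control 15 have the lowest value of every class.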

How the data were processed

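The authors deposited 1 table of UMI counts per gene and barcode for each embryo, aligned with STAR to mm10 per the submitters' processing notes. Not given in the sources used here: the STAR version, gene annotation, UMI collapsing and use of strand. From these counts, UMIs were summed per embryo over barcodes with at least 500 genes and at most 10% mitochondrial UMIs, in all cells and in marker gates (at least 2 own markers, more than of either other class, at most 1 marker of each list of other cell types). The 7 libraries held 7083225 to 11859209 UMIs. The sums held 5316785 to 9460628 UMIs in all cells, 1183631 to 2132966 in progenitors, 2296339 to 4590541 in excitatory neurons and 356886 to 680826 in interneurons, so interneuron values are the least precise. Every 2 libraries differed by more than counting error (chi-square per gene 5.848 to 37.37).

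Tests used edgeR 4.0.16 (R 4.3.3) with TMM scaling, its filter on low counts, the quasi-likelihood test, two-sided, and Benjamini-Hochberg adjustment over all genes tested, with a threshold of 0.05. Class contrasts had the embryo as a block, since both sums come from 1 animal. Genotype was tested over 4 against 3 embryos of 1 litter, so p-values measure the spread between those embryos. Class shares were compared by an exact permutation test. Alternatives used DESeq2 1.42.0, limma 3.58.1, other gates, filters and scalings, and each embryo left out. The fits were tested on simulated data. Gene positions come from GENCODE M21 on GRCm38 (mm10) and promoter windows from RefSeq on GRCm38.p6, which matched 33 of the 40 members.

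The members, lists and tests were chosen with earlier results of these data known. Values are given in full for up to 12 called members per class contrast and up to 6 in the cycling contrast by size of fold change, for Ezh1, Ezh2, Kdm6a, Rbbp7 and Ash1l, and for the 5 members with the smallest p in each contrast of genotype. Of the rest of the pathway, up to 4 called genes in each direction are named.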

Additional observations from a re-analysis of the deposited data

Results flagged for a closer look

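In 7 of 160 groups of 4 mutant embryos (40 members in all cells and 3 classes), 1 embryo stood apart from the other 3 by more than Dixon's 95% critical value for 4 samples. Chance flags about 1 in 20 groups. Mutant 12 had 10.59 CPM of Ezh1 in progenitors, against 21.14 to 21.54 in the other mutants. It also had 62.94 CPM of Dpy30 in progenitors, against 82.19 to 84.55. In its interneurons Pcgf5 stood at 4.33 CPM, against 0 in the other 3. There any value above 0 would have been flagged, so this flag says nothing about the size of the value. Mutant 17 had 36.45 CPM of Aebp2 in excitatory neurons, against 45.47 to 47.16. Setd1a stood there at 23.53 CPM, against 18.34 to 18.95, and Phf1 in its interneurons at 31.13 CPM, against 12.24 to 14.43. Mutant 10 had 132.6 CPM of Phc1 in interneurons, against 107.6 to 111.1.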

How the results depend on the processing

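Of 1855 values of single genes under the alternatives, 1729 kept their direction and side of the threshold, 102 lost a call, 9 gained one and 15 changed sign. They belong to 107 gene results, of which 75 were called, so the rest had no call to lose. Of the 75 called results, 47 kept the call under every alternative in which they could be tested. Among these, Phf19, Phf1 and Pcgf5 against interneurons were tested in 15 of 18 alternatives. Phf19 was tested in 17 of 18 against excitatory neurons and in 15 of 17 in the cycling contrast. Without cycling cells, members higher in progenitors numbered 6 in place of 11 against excitatory neurons and 3 in place of 7 against interneurons, while those over all genes went from 3449 to 2868 and from 2468 to 1877. Against interneurons 36 members could then be tested in place of 39, and 8571 genes in place of 9506. Phf19 and Pcgf5, the largest differences there, were not tested, nor was Phf1. Of the 3, Kmt2c had not been called before. The count lower in interneurons than in excitatory neurons, 1, became 0 by DESeq2, at a mitochondrial share of at most 5% and without the replicate block, 3 without the filter and at 300 genes per barcode, and 2 under the strict gate (at most 1 marker of another class) and without cycling cells. Leaving out 1 embryo gave 1 to 2, the highest without control 16. The count higher in cycling progenitors, 9, became 5 by DESeq2, at 5% mitochondrial share and under the strict gate. The count lower there, 5, became 2 by DESeq2, 3 at 5% mitochondrial share and 3 without the replicate block, and leaving out 1 embryo gave 2 to 5 (2 without control 16, 3 without mutant 12). The difference in interneuron share, 0.7665 points, became −0.1758 without mutant 12 and −0.4342 without control 16, the range over left-out embryos being −0.4342 to 1.794. Signs changed for 4 differences, none called: Ezh2 between progenitors and interneurons (0.0005923 by DESeq2, 0.03998 and 0.0258 without mutants 10 and 12, with −0.05441 the lowest over left-out embryos, 0.1054 at 5% mitochondrial share, 0.02846 under the strict gate), Ezh1 between interneurons and excitatory neurons (−0.05043 without the filter, −0.001508, −0.04032 and −0.167 without mutant 10, mutant 11 and control 14, with 0.1531 the highest over left-out embryos, −0.04198 at 300 genes, −0.2056 at 5% mitochondrial share, −0.01687 with 3 own markers, −0.05087 without cycling cells), Rbbp7 in the same contrast (0.01352 under the strict gate) and Kmt2b in the interaction (0.002839 under the strict gate). The cause of these changes was not tested. Without the replicate block, members higher and lower numbered 9 and 13 for progenitors against excitatory neurons, 5 and 16 against interneurons, 11 and 0 for interneurons against excitatory neurons, and 6 and 3 for cycling progenitors. No paired analysis was possible because mutants and controls share no replicate numbers. For genotype, 0 members were called under every alternative run, while calls over all genes ranged from 3 to 165 in all cells, 0 to 21 in progenitors, 4 to 158 in excitatory neurons, 0 to 26 in interneurons and 0 to 12 in the interaction, each highest without the filter. By DESeq2 there were 25 in all cells and 27 in excitatory neurons. Without mutant 17 there were 9 higher and 17 lower in all cells, 24 and 28 in excitatory neurons and 6 and 6 in progenitors.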

Other observations

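Hox genes, the classical targets of Polycomb repression and Trithorax activation, are normally silent in the forebrain. Of 39 listed, 32 had a row in a table and 30 had a UMI in kept cells, 97 UMIs over the 7 embryos. Mutants 10, 11, 12 and 17 held 13, 19, 21 and 19 of these UMIs and controls 14, 15 and 16 held 5, 12 and 8. Summed over the list, the levels were 2.22, 3.49, 3.34 and 2.92 CPM in the mutants and 0.70, 1.58 and 0.85 CPM in the controls, which do not overlap. In all cells 9.89% of the genes tested did not overlap either, but that share is over single genes abundant enough to test and not over sums of rare genes. The Hox sums rest on 5 to 21 UMIs per embryo. The highest level of 1 Hox gene in 1 embryo was 0.61 CPM, and 0 Hox genes were abundant enough to be tested.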
